A study of Mus musculus with 6 samples.

Results

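A set of 10 mouse genes of simple-epithelial keratin filaments and of the cornified envelope was examined in hepatocytes, out of 55487 gene rows counted: the keratins *Krt8*, *Krt18*, *Krt19*, *Krt20*, *Krt23* and *Krt7*, the envelope precursors *Sprr1a* and *Ivl*, the cross-linking enzyme *Tgm1* and the plakin *Evpl*. Each of the 10 symbols matched 1 Ensembl gene, and all 10 passed the filter on low counts. The libraries came from hepatocytes of adult mice, 6 to 8 weeks of age, whose RNA was taken 48 h after the cells were isolated. In 3 libraries the mice were homozygous for AEG-1-C75S, an allele of *Mtdh* in which the cysteine of AEG-1 that can be palmitoylated is a serine, and in 3 they were wild type (WT) offspring of the same kind of heterozygous matings. All 6 carry the treatment label Control. The labels do not say whether libraries of 1 genotype came from separate mice or whether mice were pooled, so n counts libraries, and the spread between them may be partly technical. The genes were chosen by symbol with their C75S against WT differences in gene counts already known. Those differences are therefore given as a description, with no p-value printed, and whether they pass the threshold used over all genes is told without reading support from it. Differences are log2 ratios of C75S over WT, also written as log2 fold changes.

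Keratins form intermediate filaments only as pairs of an acidic type I chain with a basic type II chain. Hepatocytes normally rely on keratin 8 (type II) with keratin 18 (type I), which protect liver cells against mechanical and toxic stress, while keratins 7 and 19 mark bile duct cells. The cornified envelope is the protein shell of squamous cells: transglutaminases cross-link precursors such as involucrin (*Ivl*) and small proline-rich proteins (*Sprr1a*) onto a scaffold of plakins such as envoplakin (*Evpl*). *Sprr1a* is also known as a gene switched on in injured or stressed cells outside the skin.

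The 2 envelope precursors share the letters TGANTCA, found in no window of *Tgm1* or of the 5 keratins searched. As only 7.81% of all windows hold these letters, no contrast with the keratins is read from this. Both promoters are printed with those of the type I keratins *Krt18* and *Krt20*. Each run is the 250 bases before the RefSeq start of the gene in GRCm38.p6, 5′ to 3′ on the gene's strand. Capitals mark TGANTCA, the core letters bound by AP-1 factors, and TATAAA, the TATA box letters.
*Sprr1a*, chr3:92485882-92486131, minus strand: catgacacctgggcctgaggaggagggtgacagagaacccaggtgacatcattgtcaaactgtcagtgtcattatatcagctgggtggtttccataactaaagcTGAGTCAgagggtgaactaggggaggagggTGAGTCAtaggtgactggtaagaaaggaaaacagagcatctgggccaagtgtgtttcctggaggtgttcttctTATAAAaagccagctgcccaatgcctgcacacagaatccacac
*Ivl*, chr3:92573736-92573985, minus strand: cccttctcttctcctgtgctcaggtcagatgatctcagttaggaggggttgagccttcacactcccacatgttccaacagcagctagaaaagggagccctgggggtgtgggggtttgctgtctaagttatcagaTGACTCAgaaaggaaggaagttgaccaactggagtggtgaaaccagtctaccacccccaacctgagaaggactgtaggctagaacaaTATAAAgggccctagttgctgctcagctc
*Krt20*, chr11:99438154-99438403, minus strand: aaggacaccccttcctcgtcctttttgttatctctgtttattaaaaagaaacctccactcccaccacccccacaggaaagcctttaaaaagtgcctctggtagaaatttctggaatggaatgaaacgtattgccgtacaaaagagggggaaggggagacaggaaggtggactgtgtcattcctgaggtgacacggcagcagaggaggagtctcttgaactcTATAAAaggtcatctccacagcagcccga
*Krt18*, chr15:102027966-102028215, plus strand: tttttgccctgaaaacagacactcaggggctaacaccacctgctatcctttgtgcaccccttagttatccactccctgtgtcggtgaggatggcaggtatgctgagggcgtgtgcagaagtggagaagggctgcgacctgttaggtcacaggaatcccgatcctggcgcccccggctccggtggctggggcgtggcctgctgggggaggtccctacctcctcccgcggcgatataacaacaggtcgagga
Windows of 300 bases (250 before the start and 50 after it) were searched on both strands, and 8 of the 10 genes had at least 1 window. *Krt19* and *Evpl* were the other two. *Sprr1a* held TGANTCA at 2 places, with first bases at -146 and -116 from the start, and TATAAA at -43. *Ivl* held TGANTCA at 1 place, also at -116, and TATAAA at -29. Of 32851 windows over all genes, 7.81% held TGANTCA, 0.46% held it at least 2 times, 13.6% held TATAAA and 1.54% held both. *Krt20* held TATAAA at -29 and CATTCC, the core letters of TEAD sites, on 1 strand or the other at -139, -134 and -74 (14.7% of windows hold CATTCC). In *Krt8* TATAAA matched at -1 and, overlapping it on the other strand, at -3. GGGCGG, the letters of a GC box, was found in the windows of *Tgm1* (2 places) and *Krt7* (4 places), against 35.7% of all windows. TTGCNNNAA, letters of C/EBP sites, is held by 9.56% of windows and was found in none of these genes, and *Krt18* and *Krt23* held none of the 5 motifs. A match describes letters and does not show that a factor binds there.

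The libraries held 16944723 to 21044292 counts on genes, and 3 counts in a library equal 0.143 to 0.177 CPM before TMM scaling. CPM stands for counts per 1000000 counts, and the levels of genes are given with TMM-scaled library sizes. Over all 12741 genes tested with edgeR, 396 passed an adjusted p-value of 0.05 (253 when C75S replicate 1 was left out, 201 when WT replicate 2 was, and 246 when WT replicate 3 was), and the median log2 fold change was -0.003. *Mtdh* itself was at 199.8 ± 10.5 CPM in C75S against 196.8 ± 5.18 in WT (SD, n = 3 each), and gene counts do not read the altered codon. The cells carried hepatocyte markers at high level: the 10 markers listed summed to 71924 to 84599 CPM in C75S and 79801 to 87959 CPM in WT. Of these 10, *Cyp2e1* and *Fgb* were higher in C75S, at log2 ratios of 0.31 (SE 0.06, adjusted p = 0.00908 by edgeR) and 0.32 (SE 0.06, adjusted p = 0.00112), and the other 8 did not pass.

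*Krt8* and *Krt18* were among the most abundant transcripts of these cells and were both modestly higher in C75S. *Krt8* (chromosome 15, 101996698 to 102004482, minus strand, GRCm38) was at 2268, 2137 and 2172 CPM in C75S replicates 1 to 3 and at 1853, 1830 and 1807 CPM in WT. Its partner *Krt18* (chromosome 15, 102028180 to 102032027, plus strand) was at 2603, 2524 and 2567 CPM in C75S and at 2169, 2132 and 2006 CPM in WT. Every C75S library lay above every WT library for both genes, and the libraries of a genotype lay close together. The log2 fold change was 0.26 (SE 0.05) for *Krt8* and 0.29 (SE 0.05) for *Krt18*, or 1.20-fold and 1.22-fold. By CPM *Krt18* ranked between 28 and 35 among all gene rows in the 6 libraries and *Krt8* between 31 and 38. Their starts lie 23.7 kb apart and they are transcribed away from each other.

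The pair kept a nearly constant proportion across libraries. Per length of merged exons, *Krt18* stood to *Krt8* at 1.56, 1.61 and 1.61 in C75S and at 1.59, 1.59 and 1.51 in WT, means of 1.59 ± 0.03 and 1.56 ± 0.05 (SD, n = 3 each) that differed by less than the SD in WT and by about the SD in C75S, with overlapping ranges. Of the summed level per length of the 6 keratins, *Krt8* and *Krt18* together made up 99.7% in each C75S library and 99.7% to 99.8% in each WT library. Reads that fit several places were not counted. At 90% identity or more over at least 100 bases, *Krt8* and *Krt18* each had 1 match, a pseudogene. *Krt8-ps* is 98.6% identical to *Krt8* over 941 bases and had 203 counts in all. *Gm5200* is 90.2% identical to *Krt18* over 1269 bases and had 16. How many reads of *Krt8* or *Krt18* were lost to these copies was not measured, so their ratio per length is given as counted. *Krt8* also overlaps *Gm36026* on the opposite strand, which strand-specific counting keeps apart.

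**Figure D1:**
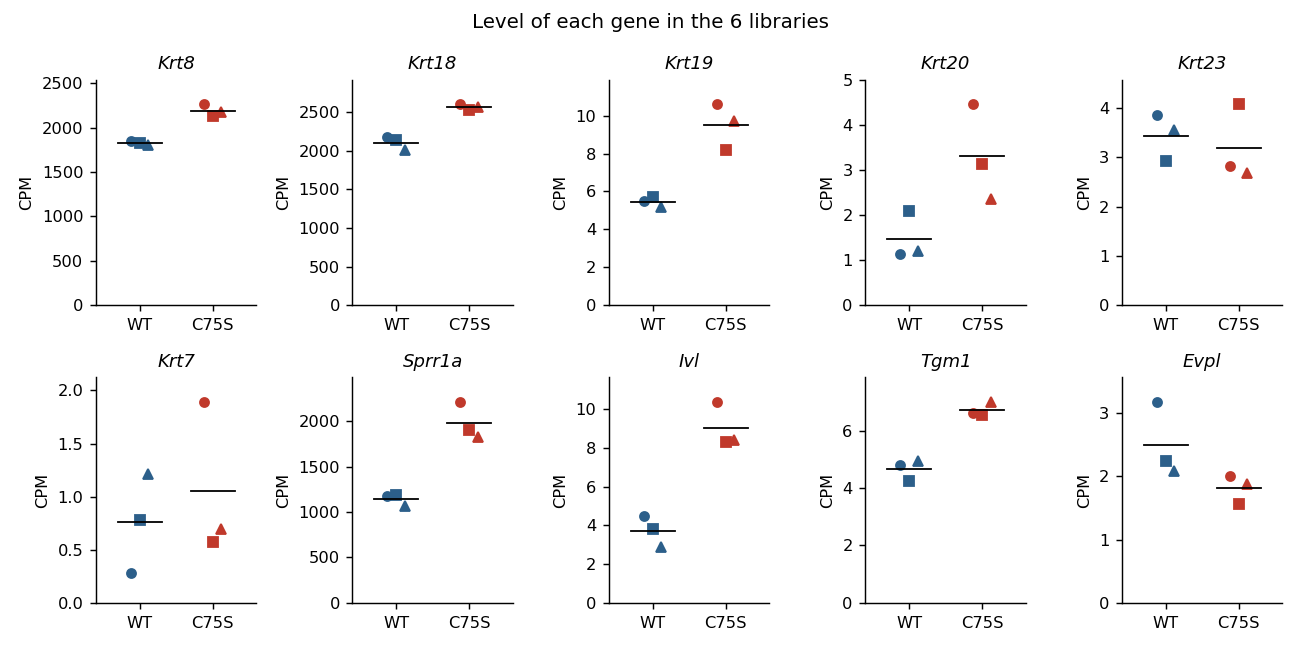
Level of each of the 10 genes in CPM (vertical axes, each from 0) in the 3 WT and 3 C75S libraries; circle, square and triangle are replicates 1, 2 and 3, and the line is the mean. All C75S points lie above all WT points for *Krt8*, *Krt18*, *Krt19*, *Krt20*, *Sprr1a*, *Ivl* and *Tgm1*, below them for *Evpl*, and overlap them for *Krt23* and *Krt7*.

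The remaining keratins were sparse, and they did not share 1 pattern. *Krt19* (chromosome 11, 100140810 to 100148665, minus strand), a type I keratin of duct and progenitor cells, was at 10.6, 8.21 and 9.74 CPM in C75S and at 5.51, 5.70 and 5.19 CPM in WT, a log2 fold change of 0.80 (SE 0.15). The lowest C75S library stood well clear of the highest WT library. Markers of bile duct cells other than keratins also had a higher sum in C75S (264 to 329 CPM against 225 to 230 in WT). That sum was carried by *Spp1* and *Cldn4*, while *Epcam* had fewer counts in C75S and *Sox9* overlapped between genotypes. The part of these markers in the *Krt19* difference was not tested. In these bulk samples more cells of a type and more RNA per cell cannot be told apart. *Krt20* (chromosome 11, 99428403 to 99438150, minus strand), known from intestinal and umbrella epithelium, was at 4.48, 3.13 and 2.35 CPM in C75S and at 1.14, 2.10 and 1.21 CPM in WT, a log2 fold change of 1.16 (SE 0.29). The genotypes did not overlap, but C75S replicate 3 and WT replicate 2 nearly met, and without C75S replicate 1 the log2 fold change was 0.89.

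*Krt23* and *Krt7* showed no separation. *Krt23* (chromosome 11, 99477974 to 99493137, minus strand), a type I keratin known to be raised in stressed liver, was at 2.81, 4.08 and 2.67 CPM in C75S and at 3.85, 2.92 and 3.54 CPM in WT, a log2 fold change of -0.10 (SE 0.22). Its start lies 55.0 kb from that of *Krt20* on the same strand. *Krt7* (chromosome 15, 101411043 to 101430313, plus strand), a type II duct keratin, was at 1.89, 0.57 and 0.70 CPM in C75S and at 0.28, 0.78 and 1.21 CPM in WT. Its longest transcript shares 20 short stretches of at least 90% identity with other genes, the most similar being 92.7% identical over 177 bases. The *Krt7* levels rest on 6 to 33 counts a library, and the value was 0.44 (SE 0.51) on the log2 scale with all libraries and -0.26 without C75S replicate 1. *Krt7* had the widest relative spread of the 10 genes: its coefficient of variation was 69.5% in C75S and 61.2% in WT, where counting alone gives 22.7% and 25.3%. For *Krt23* the spread was 24.3% and 13.7%, against counting errors of 12.7% and 11.8%.

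*Sprr1a* was the third most abundant of the 10 genes in CPM, below *Krt18* and *Krt8* in every library, and had the largest difference in CPM. *Sprr1a* (chromosome 3, 92483952 to 92485895, minus strand) was at 2215, 1906 and 1825 CPM in C75S and at 1176, 1184 and 1064 CPM in WT. The lowest C75S library exceeded the highest WT library by a wide margin. The log2 fold change was 0.80 (SE 0.07), or 1.74-fold, and *Sprr1a* ranked between 32 and 74 among all gene rows by CPM. *Ivl*, involucrin (chromosome 3, 92570902 to 92573735, minus strand), lay far lower, at 10.4, 8.30 and 8.40 CPM in C75S and at 4.46, 3.80 and 2.91 CPM in WT. Its C75S libraries were all higher, with a log2 fold change of 1.27 (SE 0.17), or 2.41-fold.

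The enzyme and the scaffold gene had differences of opposite sign, and neither passed the test. *Tgm1* (chromosome 14, 55700009 to 55713926, minus strand), keratinocyte transglutaminase, was at 6.60, 6.55 and 7.01 CPM in C75S and at 4.80, 4.24 and 4.95 CPM in WT, a log2 fold change of 0.53 (SE 0.16). The genotypes did not overlap, though *Tgm1* did not pass the threshold over all genes. *Evpl* (chromosome 11, 116220559 to 116238077, minus strand) was at 2.01, 1.57 and 1.87 CPM in C75S and at 3.18, 2.24 and 2.09 CPM in WT, a log2 fold change of -0.47 (SE 0.27). Its highest C75S library lay just under its lowest WT library, and without WT replicate 1 the value was -0.26.

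Of the 10 genes, 6 passed an edgeR adjusted p-value of 0.05, all higher in C75S (*Sprr1a*, *Ivl*, *Krt8*, *Krt18*, *Krt19* and *Krt20*), and 4 did not. Over all genes tested 3.11% passed, 1.74% as higher and 1.37% as lower. The libraries did not overlap for 7 of the 10 as higher in C75S and for 1 as lower, against 9.02% and 8.96% of all genes tested. Since the genes were proposed from this comparison, nothing is read from these counts. The median log2 fold change of the 10 was 0.48. When single libraries were left out, *Krt20* fell short of the threshold without C75S replicate 1 (log2 fold change 0.89), WT replicate 1 (1.00) or WT replicate 3 (1.03), and *Krt8* without WT replicate 2 (0.26).

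**Figure D2:**
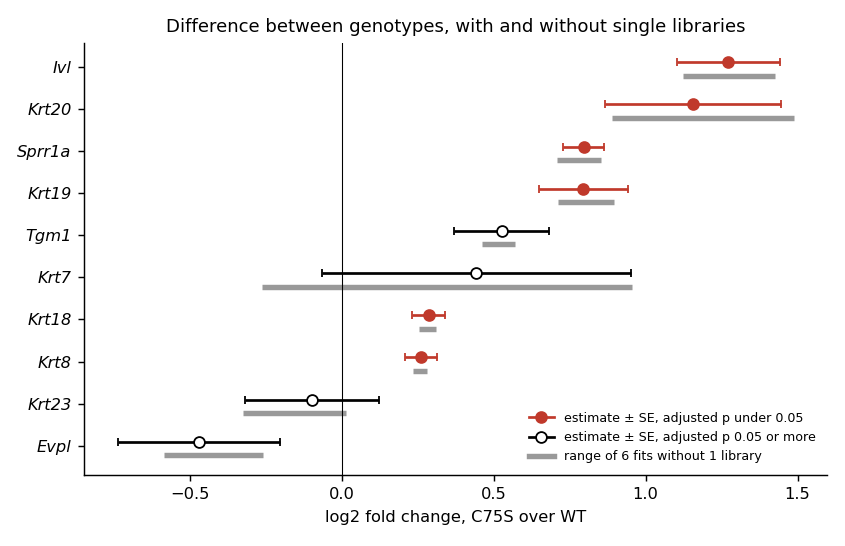
Log2 fold change of C75S over WT (horizontal axis) for the 10 genes, as estimate ± SE from edgeR, with filled red points for those under an adjusted p of 0.05; grey bars span the 6 fits that each leave out 1 library. *Ivl* and *Krt20* have the largest values, 1.27 and 1.16, and the bars of *Krt7* and *Krt23* cross 0.

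Levels were compared between genes per length of merged exons, in CPM per kb. The order by the mean of all 6 libraries was *Sprr1a* (1937 ± 596), *Krt18* (1624 ± 181), *Krt8* (1027 ± 104), *Krt19* (4.04 ± 1.27), *Ivl* (3.32 ± 1.58), *Krt23* (2.12 ± 0.38), *Tgm1* (1.80 ± 0.37), *Krt20* (1.25 ± 0.65), *Evpl* (0.34 ± 0.09) and *Krt7* (0.13 ± 0.08; SD over n = 6 libraries of both genotypes). A gap of 254-fold separated *Krt8* from *Krt19*, so the 10 genes fall into 3 abundant and 7 sparse ones. Among neighbours in this order, the ranges did not overlap between *Krt18* and *Krt8*, *Krt8* and *Krt19*, or *Krt20* and *Evpl*, and they did overlap for the other 6 neighbouring pairs. *Krt19* was nevertheless above *Ivl* in 6 of 6 libraries. The order pools both genotypes, and the means within each differ from it in places. *Ivl* was above *Krt23* in C75S (4.70 against 2.04 CPM per kb) and below it in WT (1.94 against 2.20), and *Tgm1* was above *Krt23* in C75S (2.12 against 2.04) and below it in WT (1.47 against 2.20). The libraries of *Ivl* and *Krt23* did not overlap in C75S and did in WT. Those of *Tgm1* in C75S (2.07 to 2.22) lay within the range of *Krt23* (1.71 to 2.61), so their order there is not settled. In WT the libraries of *Tgm1* and *Krt23* did not overlap.

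The order at the top also differed between genotypes. *Sprr1a* stood to *Krt18* per length at 1.52, 1.35 and 1.27 in C75S and at 0.967, 0.990 and 0.945 in WT, so *Sprr1a* led in all C75S libraries and *Krt18* in all WT libraries. Per 1000 units of *Krt18*, *Krt19* was at 2.87 ± 0.33 in C75S against 2.01 ± 0.05 in WT (SD, n = 3 each). *Ivl* amounted to 1.91 ± 0.07 per 1000 units of *Sprr1a* in C75S and 1.36 ± 0.22 in WT. All 10 genes together took up 0.68% ± 0.05 of the counts on genes in C75S libraries and 0.51% ± 0.02 in WT. These ratios and shares restate differences that were known when the genes were chosen, and nothing is read from them.

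**Figure D3:**
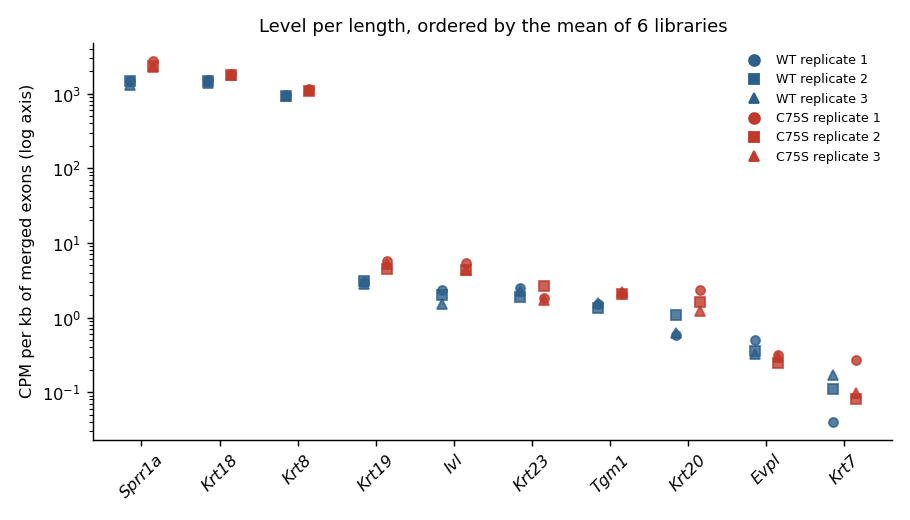
Level in CPM per kb of merged exons (log vertical axis) of the 10 genes, ordered by the mean of 6 libraries; blue is WT, red is C75S, and marker shapes are replicates 1 to 3. *Sprr1a*, *Krt18* and *Krt8* lie at 923 CPM per kb or more in every library and the other 7 genes at 5.73 or less.

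*Sprr1a* and *Ivl* lie 87.8 kb apart in the epidermal differentiation complex, a run of genes for envelope proteins. Within 500 kb on either side of *Ivl* there were 49 protein-coding genes, of which 37 had no count in any of the 6 libraries and 6 could be tested. *Sprr1a* alone held 98.99% of the counts of these 49 genes. The other tested neighbours did not pass. *Lce6a*, a late cornified envelope gene, was at 6.17 ± 0.87 CPM in C75S against 3.88 ± 1.95 in WT (SD, n = 3; log2 ratio 0.67 ± 0.30 SE, adjusted p = 0.36 by edgeR). *Crct1*, a cysteine-rich gene of the same region, was at 2.39 ± 0.55 and 1.30 ± 0.37 CPM (log2 ratio 0.87 ± 0.31 SE, adjusted p = 0.153 by edgeR). For *2210017I01Rik* and *Gm9774* the log2 fold changes were 0.59 (SE 0.39) and -0.46 (SE 0.38), with adjusted p-values of 0.55 and 0.661. This window was chosen after the values were seen.

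**Figure D4:**
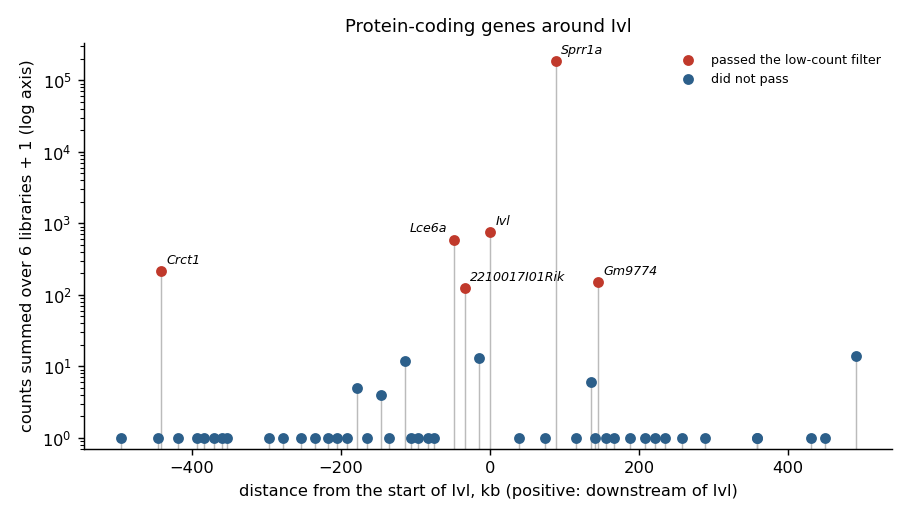
Counts summed over the 6 libraries plus 1 (log vertical axis) of the 49 protein-coding genes around *Ivl*, by distance of their starts from that of *Ivl* in kb; red points passed the low-count filter and blue points did not. *Sprr1a* stands at 183857 counts and *Ivl* at 745, while 37 genes sit at 0 counts.

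Genes of the same structures that are not among the 10 mostly had no counts or did not pass the test. In 8 lists with 202 genes, 200 matched, 91 had 0 counts in all libraries and 66 could be tested. Of these, 5 passed an edgeR adjusted p-value of 0.05 (4 higher, 1 lower in C75S), or 7.58% against 3.11% of all genes. DESeq2 called 6, the sixth being *Plec*, and limma-voom 5. Without WT replicate 2, edgeR called 2. The median log2 fold change over the 66 genes was 0.06. At an unadjusted p under 0.05 there were 21 of the 66, against 13.4% of all genes tested, and 42 of the 66 values were above 0, against 49.1% of all genes tested. Since the lists were chosen with earlier results of these data known, nothing is read from these shares.

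Among other type I keratins, 2 of 24 could be tested and 1 was called, where 3.11% of all genes tested passed. *Krt17*, a stress keratin of skin, rose from 0.83 ± 0.22 CPM in WT to 2.26 ± 0.34 in C75S (SD, n = 3 each; log2 ratio 1.42 ± 0.33 SE, adjusted p = 0.0139 by edgeR). It lost the call without C75S replicate 1 (adjusted p = 0.0855) or WT replicate 2 (0.0824). *Krt14*, which is 89.1% identical to it over 957 bases, had 6 counts in all. The start of *Krt17* lies 112 kb from that of *Krt19*. *Krt10*, of differentiated skin, stood at a log2 ratio of 0.27 (SE 0.36, adjusted p = 0.816 by edgeR), and 17 of the 24 had no count. Of the other type II keratins 2 of 22 could be tested, *Krt80* at a log2 fold change of 0.54 (SE 0.35, adjusted p = 0.544) and *Krt5* at -0.27 (SE 0.36, adjusted p = 0.822), and 12 had no count. DESeq2 and limma-voom also called 0 of these type II genes, and 0 had an unadjusted p under 0.05 in edgeR.

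Of 53 other cornified envelope precursors, 5 could be tested, 0 passed the adjusted threshold in edgeR and 3 had an unadjusted p under 0.05; 38 had no count. All 5 values were above 0, with a median of 0.17, where 49.1% of all genes were above 0 and 13.4% had an unadjusted p under 0.05. *Crct1* and *Lce6a*, already given above as neighbours of *Ivl*, are among these 5 and among those 3. The most abundant were 2 broadly expressed calcium-binding proteins that can also be cross-linked: *S100a10*, at 610 ± 6.34 CPM in C75S and 596 ± 40.2 in WT, and *S100a11*, at 335 ± 19.3 and 297 ± 21.9 CPM (log2 ratio 0.17 ± 0.06 SE, adjusted p = 0.111 by edgeR). *S100a11* passed the threshold in 4 of 15 alternative fits, with adjusted p-values from 0.0242 (without WT replicate 1) to 0.363 (without WT replicate 3). DESeq2 and limma-voom also called 0 genes of this list.

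Of 26 enzymes of cross-linking and cornification, 6 could be tested and 1 was called, as lower (3.11% of all genes tested passed, 1.37% as lower). *Sdr9c7*, a dehydrogenase of epidermal lipid processing, fell from 11.1 ± 2.16 CPM in WT to 6.74 ± 0.75 in C75S (log2 ratio -0.72 ± 0.15 SE, adjusted p = 0.00544 by edgeR), and lost the call without WT replicate 2 (adjusted p = 0.0782). The dominant transglutaminase of these cells was the tissue enzyme *Tgm2*, at 3792 ± 586 CPM in C75S and 3498 ± 316 in WT (log2 ratio 0.12 ± 0.10 SE, adjusted p = 0.704 by edgeR). *Prss8*, a membrane protease, had a log2 fold change of 0.14 (SE 0.10, adjusted p = 0.633).

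Of 21 plakin and desmosome genes, 14 could be tested and 2 passed in edgeR, both as higher, where 3.11% of all genes passed. DESeq2 called *Plec* as well. In edgeR 7 of the 14 had an unadjusted p under 0.05 (13.4% of all genes). Of the 14 values 12 were above 0 (49.1% of all genes), with a median of 0.09. *Ppl*, periplakin, which pairs with envoplakin in the envelope scaffold, rose from 199 ± 15.1 to 233 ± 11.9 CPM (log2 ratio 0.23 ± 0.06 SE, adjusted p = 0.0216 by edgeR). *Dsg1c*, a desmosomal cadherin, rose from 5.06 ± 1.17 to 7.90 ± 0.91 CPM (log2 ratio 0.65 ± 0.17 SE, adjusted p = 0.0302 by edgeR). Both calls were near the threshold: *Ppl* lost it without C75S replicate 2, WT replicate 1 or WT replicate 2 (adjusted p = 0.128, 0.108 and 0.105), and *Dsg1c* without C75S replicate 2 or 3 or WT replicate 1 or 2 (0.156, 0.0704, 0.133 and 0.126). With single libraries left out the log2 ratios stayed between 0.18 and 0.28 for *Ppl* and between 0.50 and 0.84 for *Dsg1c*. *Dsp*, desmoplakin, which anchors keratin filaments to desmosomes, had a log2 fold change of 0.01 (SE 0.05, adjusted p = 0.976), and *Dst* of 0.05 (SE 0.06, adjusted p = 0.798).

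Of the 15 keratin 8/18 partners and Mallory body genes, all 15 could be tested and 0 passed in edgeR, DESeq2 or limma-voom. In edgeR 2 had an unadjusted p under 0.05 (13.4% of all genes), and 8 values were above 0 (49.1% of all genes). *Sqstm1*, the p62 protein that collects with keratins in Mallory bodies, stood at a log2 ratio of 0.02 (SE 0.06, adjusted p = 0.932 by edgeR) and the chaperone *Hspa5* at 0.16 (SE 0.06, adjusted p = 0.192). Among 7 testable intermediate filament genes outside the keratins 1 passed, where 3.11% of all genes tested passed. Of the 7 values 6 were above 0 (49.1% of all genes), with a median of 0.31. The called gene *Vim*, vimentin, rose by 0.41 on the log2 scale (SE 0.06, edgeR adjusted p = 4.98e-05). *Lmna* was at 0.09 (SE 0.05, adjusted p = 0.431). Of 26 epidermal regulators, 15 could be tested and 0 passed in edgeR, DESeq2 or limma-voom. In edgeR 5 of the 15 had an unadjusted p under 0.05 (13.4% of all genes). Of their values 5 were above 0 (49.1% of all genes), with a median of -0.06. The AP-1 members *Jun* and *Jund*, the most abundant of that list, were at -0.12 (SE 0.05, adjusted p = 0.205) and -0.03 (SE 0.05, adjusted p = 0.825).

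**Figure D5:**
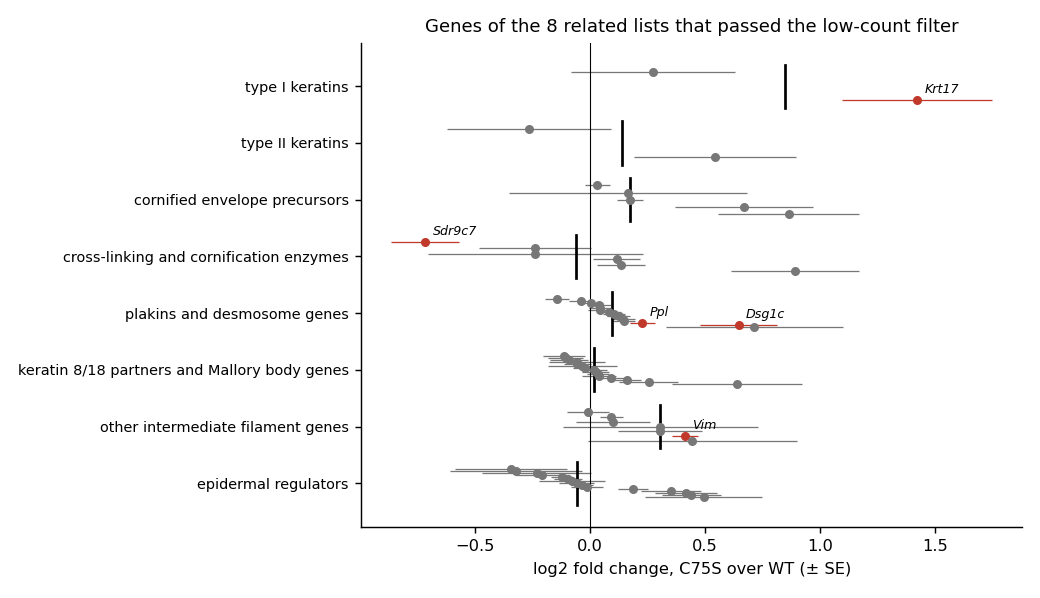
Log2 fold change of C75S over WT ± SE (horizontal axis) for the 66 genes of the 8 related lists that could be tested, by list; red marks an adjusted p under 0.05 and the black bars are list medians. The called genes are *Krt17*, *Ppl*, *Dsg1c* and *Vim* as higher and *Sdr9c7* as lower.

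Cell types that also make keratins were checked by marker lists without members among them. Of the 12 bile duct cell (cholangiocyte) markers whose sum was higher in C75S, 6 could be tested and 0 passed in edgeR, DESeq2 or limma-voom. In edgeR 4 of the 6 had an unadjusted p under 0.05 (13.4% of all genes). Of the 6 values 4 were above 0 (49.1% of all genes). The sum was carried by *Spp1* (131 ± 25.8 CPM in C75S, 91.0 ± 6.43 in WT) and *Cldn4* (63.7 ± 10.2 and 43.9 ± 5.95 CPM), while *Cftr* had 0 counts, *Sctr* 2 in all and *Epcam* 0 to 2 a library in C75S and 3 to 12 in WT. *Sox9* (28.5 ± 0.57 CPM in C75S, 29.7 ± 2.00 in WT), which is also in the list of epidermal regulators, overlapped between genotypes.

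Markers of mesothelium, which also makes keratins 8, 18 and 19, were at or near 0: the 8 genes summed to 0 to 0.24 CPM in C75S and 0 to 0.10 in WT, and 5 of them, *Wt1* included, had no count. Of 8 squamous cell markers, *Trp63*, *Dsg3* and *Dsc3* had no count in any library. The list summed to 2.46 to 2.699 CPM in C75S and 2.05 to 3.01 CPM in WT, mostly from *Krt5* and *Krt10*. A count of 0 allows up to 0.143 to 0.177 CPM, before TMM scaling, in these libraries. Sums for Kupffer cell and macrophage (96.1 to 140 CPM in C75S, 102 to 134 in WT), endothelial (33.3 to 43.2 and 31.3 to 42.0 CPM) and stellate cell markers (56.7 to 73.5 and 70.9 to 92.5 CPM) overlapped between genotypes. In the endothelial list 6 genes could be tested and 0 passed in edgeR, DESeq2 or limma-voom. In edgeR 2 of the 6 had an unadjusted p under 0.05 (13.4% of all genes). Of the 6 values 5 were above 0 (49.1% of all genes), with a median log2 ratio of 0.55. In the stellate list 3 genes could be tested, 1 was above 0, and the median log2 ratio was -0.14. That 1 gene, *Acta2*, rose from 2.62 ± 0.53 to 4.65 ± 0.30 CPM (log2 ratio 0.82 ± 0.21 SE, adjusted p = 0.0255 by edgeR). It was the 1 gene called of the 3, where 3.11% of all genes tested passed.

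The genes with profiles most like those of 4 of the 10 were taken from 9635 genes with a mean of at least 5 CPM, by Pearson's r of log2 CPM over the 6 libraries. For *Krt8* these were *Hid1* (r = 0.99), *Sprr1a* (0.99) and *Mrpl42* (0.99), for *Ivl* they were *Vim*, *Msn* and *Krt18* (0.996, 0.996 and 0.994), for *Krt19* *Api5*, *Pop4* and *Tmem238* (0.99 each), and for *Tgm1* *Vasp*, *Map7d1* and *Vil1* (0.995, 0.995 and 0.987). The 6 points fall into 2 genotypes, and between 46 and 90 of the 9635 genes exceeded 0.95 for each. Among the 10 genes themselves, *Sprr1a*, *Krt19*, *Ivl* and *Krt18* had r of 0.99, 0.99, 0.98 and 0.98 with *Krt8*, so no single pair stood out. *Krt23*, *Krt7* and *Evpl* had r of -0.35, 0.35 and -0.60 with *Krt8*. Since the 10 genes were chosen with their differences known, nothing is read from these values.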

How the data were processed

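The authors deposited 6 tables of raw counts per Ensembl gene in STAR's layout. Per the submitters' processing notes, Trim Galore 0.6.6, STAR 2.7.9a, edgeR 3.36.0 and the builds mm10 and GRCm38 were used; the annotation release is not given in the sources used here. Reverse-strand counts were used, 33.3 times those of the forward strand. Multimapping reads (17.98% to 18.5%) are not in gene counts.

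Symbols, positions and exon lengths came from GENCODE M21, promoters from RefSeq (GRCm38.p6). Genes passing filterByExpr were fitted with edgeR 4.0.16 (R 4.3.3; TMM, robust quasi-likelihood, genotype as the one term, Benjamini-Hochberg over 12741 genes); SE is the fold change over the square root of F. The procedure was tested on simulated data. Similar transcripts were sought with BLAST 2.17.0. Alternatives included DESeq2 1.42.0 and limma-voom (limma 3.58.1).

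Members and lists were chosen with earlier results of these data known. Named were the 10 genes, per list up to 4 called genes and the 2 most abundant, and the 3 closest profiles of 4 genes; *Lce6a*, *Crct1* and other neighbours of *Ivl*, and marker genes, were named after their values were seen. *Krt85* and *Pi3* of the lists found no match.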

Additional observations from a re-analysis of the deposited data

How the results depend on the processing

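Over the 15 alternatives, the number of the 10 genes that passed stayed between 5 and 6. The count over all genes stayed within 1.5 times of 396 wherever all libraries were kept, and ranged from 201 (without WT replicate 2) to 355 in the fits that left out 1 library. The count of 5 list genes ranged from 2 to 5 in those fits; 2 were left without WT replicate 2. The fit without a filter called 290 genes as higher and 283 as lower, against 222 and 174; the cause was not tested. With the replicate number as a block, 480 genes, 6 of the 10 and 6 list genes passed. The labels do not say whether same-numbered libraries were prepared together. Their deviations from the genotype means correlated at 0.02, -0.04 and 0.03, and not every library correlated best with its own number. With 3 libraries per genotype these values show no pairing, but they cannot settle whether there was any. Reversals came only from leaving out 1 library, all at values that had not passed. Leaving out 1 library at a time, log2 fold changes ranged from -0.26 (without C75S replicate 1) to 0.95 for *Krt7*, from -0.32 to 0.015 (without C75S replicate 3) for *Krt23*, from -0.022 (without C75S replicate 1) to 0.050 for *Mtdh*, from -0.029 (without WT replicate 1, and below 0 without C75S replicate 1) to 0.028 for *Dsp*, from -0.0028 (without WT replicate 1) to 0.11 for *Dst*, from -0.00067 (without WT replicate 1) to 0.67 for *Krt10*, from -0.0046 (without WT replicate 3) to 0.090 for *S100a10*, from -0.022 (without C75S replicate 1, and below 0 without WT replicate 3) to 0.067 for *Sqstm1*, and from -0.017 (without C75S replicate 3) to 0.20 for *Tgm2*. With the longest transcript in place of merged exons, *Krt7* was at 0.22 CPM per kb, and no other level moved beyond its spread. *Krt7*, *Krt20*, *Krt23*, *Evpl*, *Ivl* and *Tgm1* had under 100 counts in at least 1 library, which limits their precision.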
